A study of Mus musculus with 15 samples.

Results

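A set of 8 genes best known from the lining of the airways and the air sacs of the lung was followed across 15 mouse aortas. The set held the secretoglobins Scgb1a1, Scgb3a1 and Scgb3a2, the cytochrome P450 gene Cyp2f2, and the surfactant protein genes Sftpa1, Sftpb, Sftpc and Sftpd. Every probe set annotated to 1 of these 8 genes and to no other gene was used, which gave 10 probe sets of 45037, for 8 genes of 18193. There were 4 probe sets for the 4 airway genes and 6 for the 4 surfactant genes. The genes were picked with a large diabetes difference of Scgb1a1 in view, so their levels are a description and carry no test.

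The study measured RNA of the total aorta, root to bifurcation, from male C57BL/6 mice aged 9 weeks on Affymetrix arrays, 1 array per mouse. Apoe, which encodes the lipid carrier apolipoprotein E, was deleted in all of them. In the double null mice Ager, the gene of RAGE, a receptor for advanced glycation end products, was deleted too, as labelled. The groups were diabetic ApoE-/- RAGE-/- (replicates 9 to 12), non-diabetic ApoE-/- RAGE-/- (replicates 13 to 15), diabetic ApoE-/- (replicates 1 to 4) and non-diabetic ApoE-/- (replicates 5 to 8). At 6 weeks of age the diabetic mice were given 5 daily injections of streptozotocin, a toxin of pancreatic beta cells, at 65 mg/kg in citrate buffer, and the non-diabetic mice 5 of the buffer alone. In the rest of the text the genotypes are called Apoe/RAGE null and Apoe null. Mice of these genotypes came from different suppliers, so genotype and colony cannot be told apart. With 3 or 4 arrays a group, the precision of each value is limited. Nothing in the labels ties the mice to litters or to dissection days.

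The airways and the air sacs are lined by different cells. Club cells, the secretory cells of the small airways, make secretoglobins and Cyp2f2, an enzyme that oxidises inhaled chemicals. Alveolar type 2 cells make surfactant, whose proteins SP-B and SP-C, encoded by Sftpb and Sftpc, spread lipid at the air surface. The surfactant proteins SP-A and SP-D, encoded by Sftpa1 and Sftpd, are collectins, which bind microbes. Both are also made outside the air sacs, club cells of the mouse airway included. Secretoglobins, Sftpb and Sftpc are not part of the known programme of the aortic wall. Of the smooth muscle markers of the aortic wall, the myosin gene Myh11 lay between 11.75 and 12.48 (log2 level) on the 15 arrays. All 6 smooth muscle genes measured were at their lowest in replicate 11.

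The label of airway and alveolar genes fitted the data only in part. The 4 airway genes differed widely and together between arrays, were highest in diabetic Apoe/RAGE null replicate 11, and were near their lowest in the 3 non-diabetic Apoe/RAGE null arrays. Sftpb and Sftpc stayed within a narrow band on all 15 arrays. Sftpd and 1 of the 2 Sftpa1 probe sets stood out in replicate 11 and in no other array. Replicate 11 was thus the highest array for the 4 airway genes, Sftpd and Sftpa1 1422334_a_at, and not for Sftpa1 1429626_at, Sftpb and Sftpc. RMA values carry no detection call, so whether a level was above background was not given.

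Some features of the arrays touch the values that follow. Replicates 9 and 10, labelled diabetic Apoe/RAGE null, went against their genotype label at Decr2, a peroxisomal enzyme gene on the chromosome of Ager. Decr2 read 5.19 in replicate 9 and 5.10 in replicate 10, against 7.40 and 7.56 in replicates 11 and 12 and 6.84 to 6.98 in non-diabetic Apoe/RAGE null arrays. In the Apoe null arrays it read 5.32 to 6.01. Replicate 10 also had 318 genes at least 1 above every other array (log2), replicate 8 had 72, replicate 11 had 22, replicate 13 had 11, and the others 0 to 2. For the airway genes and Sftpd, differences that rest on the diabetic Apoe/RAGE null group are therefore also given without replicates 9 and 10 and without replicate 11.

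Scgb1a1, encoding the main secreted protein of club cells, varied most among the 8 genes. Its level (log2, probe set 1452543_a_at) was 8.42, 8.94, 10.90 and 5.59 in diabetic Apoe/RAGE null replicates 9 to 12, against 3.12, 3.31 and 3.98 in non-diabetic Apoe/RAGE null replicates 13 to 15. It was 7.04, 7.77, 6.33 and 7.39 in diabetic Apoe null replicates 1 to 4, against 5.64, 5.52, 6.30 and 7.0 in non-diabetic Apoe null replicates 5 to 8. Replicates 11, 10 and 9 were the 3 highest arrays, while replicate 12 of the same group stood eleventh of 15, among the non-diabetic Apoe null arrays. The 3 non-diabetic Apoe/RAGE null arrays lay below all the others. Its range over the arrays, 7.78, was the fifth widest of the 18193 genes.

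In Apoe/RAGE null mice Scgb1a1 averaged 8.46 ± 2.19 with diabetes (SD, n = 4) and 3.47 ± 0.45 without (SD, n = 3). In Apoe null mice the mean was 7.14 ± 0.61 with diabetes and 6.12 ± 0.68 without (SD, n = 4 each). The order of the means was thus diabetic Apoe/RAGE null, diabetic Apoe null, non-diabetic Apoe null and non-diabetic Apoe/RAGE null. The first 3 groups in it overlapped with each other, and the SD within the first, 2.19, exceeded its distance of 1.33 from the second. The other airway genes had the same order of means.

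Scgb3a1, a secretoglobin of the larger airways, was high in the same arrays. Its promoter is shown because it is 1 of the 2 airway genes with a RefSeq promoter entry used here. The window runs from 250 bases before to 50 bases after the gene's start, on the + strand of GRCm38.p6, at chr11:49663345-49663644. The letters CACTTG, or CAAGTG on the other strand, are in capitals. They are a form of the sequence bound by homeodomain factors of the NK2 class, to which the lung and thyroid factor NKX2-1 belongs.

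Scgb3a1: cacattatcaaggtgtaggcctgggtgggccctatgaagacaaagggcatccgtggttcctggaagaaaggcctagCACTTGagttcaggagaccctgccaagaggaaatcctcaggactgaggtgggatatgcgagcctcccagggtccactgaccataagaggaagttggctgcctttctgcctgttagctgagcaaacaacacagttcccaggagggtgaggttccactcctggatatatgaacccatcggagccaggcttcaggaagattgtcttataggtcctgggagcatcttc

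The level of Scgb3a1 (log2, 1419699_at) was 6.55, 7.20, 10.33 and 5.51 in diabetic Apoe/RAGE null replicates 9 to 12, against 5.19, 5.08 and 4.89 in non-diabetic Apoe/RAGE null replicates 13 to 15. It was 6.07, 6.52, 5.64 and 7.01 in diabetic Apoe null replicates 1 to 4, against 5.39, 4.85, 5.55 and 7.13 in non-diabetic Apoe null replicates 5 to 8. Replicate 11 exceeded the next array, replicate 10, by 3.13. The lowest array was replicate 6, a non-diabetic Apoe null aorta, and the 3 non-diabetic Apoe/RAGE null arrays came next. Non-diabetic Apoe null replicate 8 was above all 4 diabetic Apoe null arrays, so the 2 Apoe null groups overlapped.

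Scgb3a2, a secretoglobin of club cells, gave nearly the same picture. Its level (log2, 1425218_a_at) was 5.75, 6.62, 9.66 and 4.84 in diabetic Apoe/RAGE null replicates 9 to 12, against 4.28, 4.48 and 4.25 in non-diabetic Apoe/RAGE null replicates 13 to 15. It was 5.47, 6.51, 4.99 and 5.96 in diabetic Apoe null replicates 1 to 4, against 5.22, 4.75, 5.32 and 6.04 in non-diabetic Apoe null replicates 5 to 8. Replicate 11 was again alone at the top, 3.04 above replicate 10, and the 3 non-diabetic Apoe/RAGE null arrays were the lowest 3.

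Cyp2f2 is expressed in mouse club cells and also in liver. Its promoter is shown for comparison with that of Scgb3a1, at chr7:27119705-27120004 of GRCm38.p6 on the + strand, with the same letters in capitals.

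Cyp2f2: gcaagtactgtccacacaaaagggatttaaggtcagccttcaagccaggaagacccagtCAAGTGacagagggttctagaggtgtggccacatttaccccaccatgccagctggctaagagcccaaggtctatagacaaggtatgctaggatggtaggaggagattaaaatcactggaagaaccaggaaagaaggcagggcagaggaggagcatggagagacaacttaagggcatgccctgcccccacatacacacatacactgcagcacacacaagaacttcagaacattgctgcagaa

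Cyp2f2 read (log2, 1448792_a_at) 5.71, 6.58, 9.44 and 4.86 in diabetic Apoe/RAGE null replicates 9 to 12, against 4.61, 4.58 and 4.70 in non-diabetic Apoe/RAGE null replicates 13 to 15. The readings were 6.24, 6.94, 5.70 and 6.29 in diabetic Apoe null replicates 1 to 4, against 5.50, 4.98, 5.03 and 5.72 in non-diabetic Apoe null replicates 5 to 8. Replicate 11 lay 2.50 above the next array, here replicate 2, and the non-diabetic Apoe/RAGE null arrays were the lowest 3. In the Apoe null mice, diabetic replicate 3 was just below non-diabetic replicate 8, and the other 3 diabetic arrays were above all 4 non-diabetic ones.

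**Figure D1:**
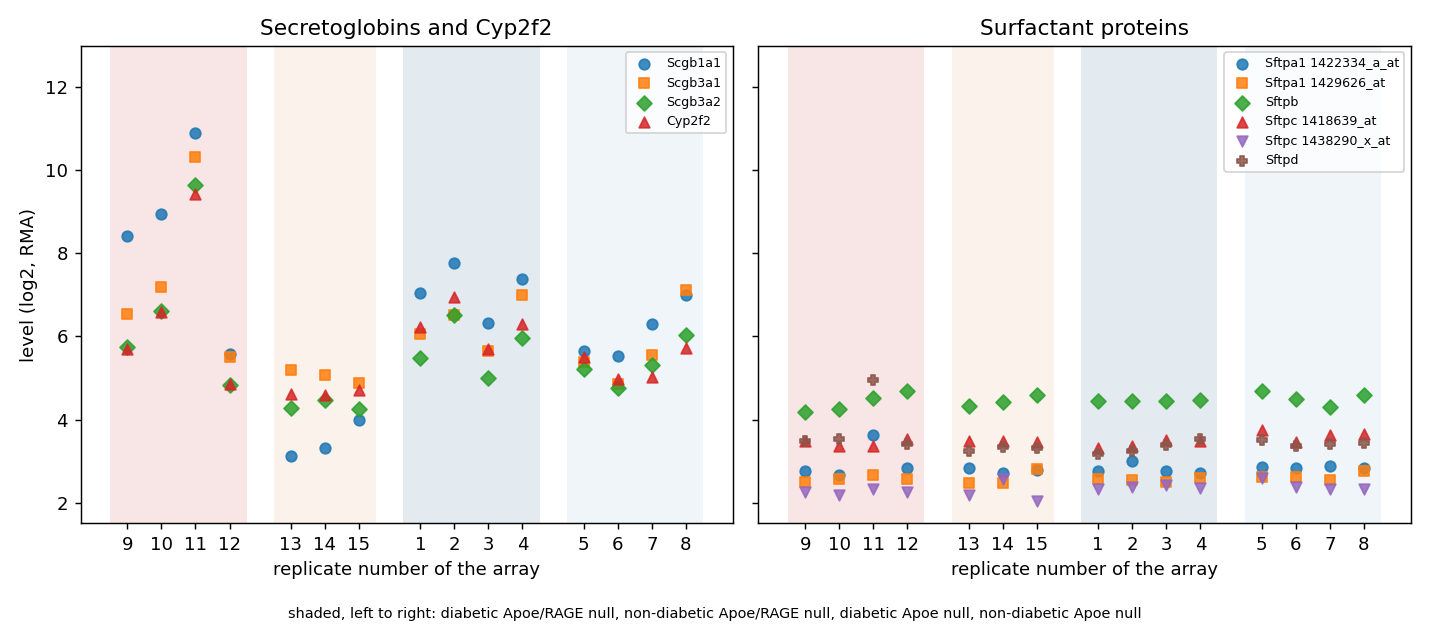
Level (log2, RMA) of the 8 genes in each of the 15 aortas, by group, against the replicate number of the array, with 1 point per array and probe set. The left panel has the 4 airway genes, with ranges of 4.86 to 7.78 and replicate 11 at the top, and the right panel the 6 surfactant probe sets, where only Sftpd and 1 Sftpa1 probe set stand out in replicate 11.

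Among the surfactant genes the collectin Sftpd differed most. Its level (log2, 1420378_at) was 3.49, 3.54, 4.95 and 3.40 in diabetic Apoe/RAGE null replicates 9 to 12, against 3.24, 3.33 and 3.31 in non-diabetic Apoe/RAGE null replicates 13 to 15. It was 3.16, 3.24, 3.38 and 3.54 in diabetic Apoe null replicates 1 to 4, against 3.51, 3.36, 3.40 and 3.44 in non-diabetic Apoe null replicates 5 to 8. Without replicate 11 the range was 0.38, against 1.79 with it. Replicate 11 was 1.41 above every other array.

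Sftpa1, the other collectin, had probe sets that disagreed. The level of 1422334_a_at was 3.62 in replicate 11, 0.61 above the next array, and 2.67 to 3.01 on the other 14 arrays. Probe set 1429626_at lay between 2.47 and 2.80 on all arrays, with 2.66 in replicate 11. The first had the higher mean and stands for the gene.

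Sftpb and Sftpc, which alveolar type 2 cells make, did not share this pattern. The Sftpb promoter is shown as that of a surfactant gene, at chr6:72304360-72304659 of GRCm38.p6 on the + strand. The letters CACTTG and CAAGTG are not in this window, so it has no capitals. Shorter or other forms of the bound sequence were not searched. The window of Sftpa1, also a surfactant gene, held 2 matches, so the letters do not divide airway from surfactant genes.

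Sftpb: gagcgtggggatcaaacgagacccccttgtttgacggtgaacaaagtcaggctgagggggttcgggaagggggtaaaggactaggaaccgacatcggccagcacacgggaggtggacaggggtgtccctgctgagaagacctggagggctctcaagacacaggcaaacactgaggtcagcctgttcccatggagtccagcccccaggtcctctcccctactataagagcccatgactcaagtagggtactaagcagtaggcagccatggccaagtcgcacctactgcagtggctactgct

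Sftpb (1437028_at) lay between 4.18 and 4.69 (log2) on the 15 arrays, a range of 0.51, which took place 12692 among the 18193 genes. It averaged 4.41 ± 0.23 (SD, n = 4) with diabetes and 4.45 ± 0.13 (SD, n = 3) without in Apoe/RAGE null mice. In Apoe null mice it averaged 4.45 ± 0.01 with diabetes and 4.52 ± 0.17 without (SD, n = 4 each). Replicate 11 took the fifth place, and the groups overlapped in every comparison.

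Sftpc was as flat. Probe set 1418639_at read 3.49, 3.36, 3.36 and 3.52 (log2) in diabetic Apoe/RAGE null replicates 9 to 12, against 3.49, 3.49 and 3.47 in non-diabetic Apoe/RAGE null replicates 13 to 15. It read 3.31, 3.35, 3.51 and 3.49 in diabetic Apoe null replicates 1 to 4, against 3.75, 3.45, 3.62 and 3.65 in non-diabetic Apoe null replicates 5 to 8. Replicate 11 ranked twelfth of 15, and the groups overlapped in every comparison. The second probe set, 1438290_x_at, lay between 2.03 and 2.58.

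Of the 4 members whose promoter entry was used here, 3 held the letters CACTTG or CAAGTG. Member entries on 1 chromosome were left out, so a member not searched here can still have an entry. Scgb3a1 and Cyp2f2 had 1 match each, Sftpa1 had 2 and Sftpb had 0. The same letters occurred in 4455 of 32851 RefSeq promoters of this length, or 13.6%. The level of Nkx2-1 itself lay between 2.99 and 3.40 (log2) on all arrays, with 3.04 in replicate 11. A match is a run of letters, and no binding was measured.

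The diabetes comparison in Apoe/RAGE null aortas held the widest differences. Differences below are in log2 units with the SE of the fit across all arrays. Scgb1a1 was 4.99 ± 0.84 higher in diabetic than in non-diabetic Apoe/RAGE null aortas, a ratio of 31.8. The difference was 2.35 ± 0.82 for Scgb3a1, 2.38 ± 0.78 for Scgb3a2 and 2.02 ± 0.73 for Cyp2f2. Among the surfactant genes it was 0.55 ± 0.27 for Sftpd, 0.19 ± 0.17 for Sftpa1, -0.04 ± 0.12 for Sftpb and -0.05 ± 0.09 for Sftpc. The airway genes thus stood apart from Sftpb and Sftpc by 2 log2 units or more.

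These sizes depended on replicate 11 for all 4 airway genes and for Sftpd. Without it the differences were 4.18 for Scgb1a1, a ratio of 18.1, 1.37 for Scgb3a1, 1.40 for Scgb3a2, 1.09 for Cyp2f2 and 0.18 for Sftpd. Without replicates 9 and 10 they were 4.77, 2.87, 2.91, 2.52 and 0.88 for the same genes in that order. The sign held for all 5 genes in both cases. That of Sftpa1 turned, at -0.03 without replicate 11.

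The 4 airway genes did not overlap between the diabetic and non-diabetic Apoe/RAGE null groups, and neither did Sftpd, which made 4 of 4 airway and 1 of 6 surfactant probe sets higher. Over all 45037 probe sets 2.41% were higher and 4.08% lower without overlap. The genes were chosen from this contrast, so nothing is read from that count. The median difference was 2.36 over the 4 airway genes, 0.08 over the 4 surfactant genes and 1.28 over the 8, against -0.02 over all 18193 genes. In limma, at an adjusted p under 0.05, the comparison called 0 of 45037 probe sets (0%), at an unadjusted p under 0.05 it called 3269 (7.26%), and at B above 0, the study's own threshold, 4 (0.00888%).

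In Apoe null aortas the differences of the airway genes between diabetic and non-diabetic mice were smaller in value. The difference was 1.02 ± 0.77 for Scgb1a1, 0.99 ± 0.67 for Cyp2f2, 0.58 ± 0.76 for Scgb3a1 and 0.40 ± 0.73 for Scgb3a2 (SE). All 4 were positive, and all 6 surfactant probe sets were negative, Sftpc 1418639_at at -0.20 ± 0.08 and the others between -0.10 and -0.03. No probe set of the 10 was free of overlap, against 3.49% higher and 2.58% lower over all probe sets. The median was 0.78 over the airway genes and -0.08 over the surfactant genes, against -0.0009 over all genes. This comparison called 0 probe sets of the array in limma (0%), 4791 at an unadjusted p under 0.05 (10.6%) and 76 at B above 0 (0.169%). The interaction, which sets the diabetes difference in Apoe/RAGE null against that in Apoe null aortas, called 0 (0%), with 3251 at an unadjusted p under 0.05 (7.22%) and 0 at B above 0. For no member was a difference between the genotypes in the diabetes effect shown.

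RAGE deletion in diabetic mice gave positive values for the airway genes that rested on replicate 11. The difference, diabetic Apoe/RAGE null minus diabetic Apoe null, was 1.33 ± 0.77 for Scgb1a1, 1.09 ± 0.76 for Scgb3a1, 0.98 ± 0.73 for Scgb3a2 and 0.35 ± 0.67 for Cyp2f2 (SE). Without replicate 11 it was 0.51, 0.11, 0.00 and -0.58 for the same genes in that order. Without replicates 9 and 10 it was 1.11, 1.61, 1.52 and 0.85. For Sftpd it was 0.51 ± 0.25, and 0.15 without replicate 11 and 0.84 without replicates 9 and 10, while Sftpb was at -0.03 ± 0.11 and Sftpc at 0.02 ± 0.08. All 10 probe sets overlapped between the groups, against 1.81% higher and 4.7% lower without overlap over all probe sets. Limma called 110 probe sets of the array (0.244%), 12 higher (0.0266%) and 98 lower (0.218%), none of them a member, with 6669 at an unadjusted p under 0.05 (14.8%), and 321 passed B above 0 (0.713%). The diabetic Apoe/RAGE null group serves this comparison and that of diabetes, and the values of the 2 are not independent.

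RAGE deletion without diabetes went the other way. The difference, non-diabetic Apoe/RAGE null minus non-diabetic Apoe null, was -2.64 ± 0.84 for Scgb1a1, -0.99 ± 0.78 for Scgb3a2, -0.68 ± 0.82 for Scgb3a1 and -0.68 ± 0.73 for Cyp2f2 (SE). It was -0.13 ± 0.27 for Sftpd and -0.14 ± 0.09 for Sftpc. The groups did not overlap for Scgb1a1, Scgb3a2, Cyp2f2 and Sftpd, which made 3 of 4 airway and 1 of 6 surfactant probe sets lower, against 2.66% lower and 2.11% higher over all probe sets. Here too the members were known to vary when they were chosen. The median was -0.84 over the airway genes and -0.10 over the surfactant genes, against 0.0019 over all genes. Limma called 0 probe sets of the array (0%), with 1159 at an unadjusted p under 0.05 (2.57%) and 0 at B above 0.

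**Figure D2:**
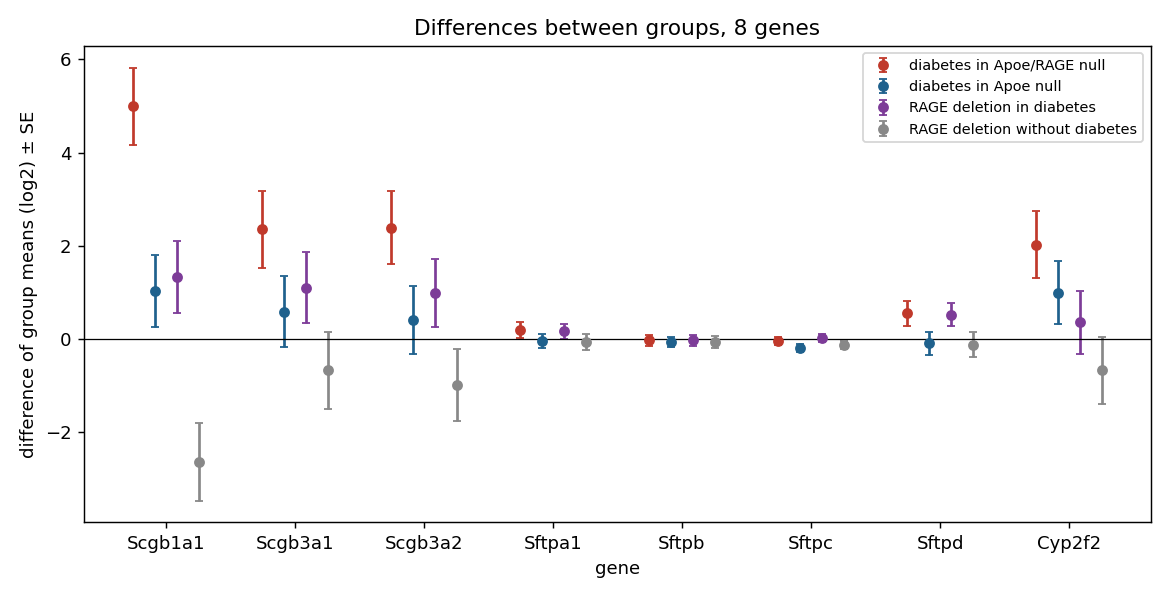
Difference of group means (log2) for the 8 genes in the 4 comparisons, with bars for the SE of the limma fit. The airway genes lie above 2 for diabetes in Apoe/RAGE null and below 0 for RAGE deletion without diabetes, and Sftpb and Sftpc lie near 0 in all 4.

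The airway genes followed each other from array to array. Over the 15 arrays the 6 pairs of airway genes had Pearson r of 0.868 to 0.972 and Spearman rho of 0.879 to 0.946, and without replicate 11 r was 0.808 to 0.917. The 15 pairs of surfactant probe sets had r of -0.33 to 0.86, and without replicate 11 of -0.37 to 0.59. Pairs of an airway with a surfactant probe set, 24 in all, had r of -0.47 to 0.86 and without replicate 11 of -0.40 to 0.44. The shared order of the airway genes was thus still there without the highest array, and the link to the surfactant genes was not above an r of 0.44. The arrays share group, colony and normalization, so these are descriptions with no p.

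The gene most like Scgb1a1 over the 15 arrays was Bpifa1, a secreted protein of the nasal and large-airway lining, with r = 0.976 and 0.964 without replicate 11. Its level was 7.85, 8.25, 11.19 and 5.12 (log2) in diabetic Apoe/RAGE null replicates 9 to 12, against 3.04, 3.04 and 3.65 in non-diabetic Apoe/RAGE null replicates 13 to 15. It was 7.11, 8.11, 6.51 and 7.80 in diabetic Apoe null replicates 1 to 4, against 4.64, 4.43, 6.28 and 7.66 in non-diabetic Apoe null replicates 5 to 8. Bpifa1 thus had nearly the array order of Scgb1a1, with a rho of 0.989.

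Of the 12 genes nearest to Scgb1a1, 5 were airway secretory genes: Bpifa1, Scgb3a2 (0.896), Cyp2f2 (0.880), the mucin Muc5b (0.872) and Scgb3a1 (0.868). The other 7 were Esm1, a proteoglycan of endothelium (0.906), Cilp, a matrix protein, Ankrd33b, Atp6v1c2, Rftn1, Fst, an activin antagonist, and Tcp11l2. These 7 had ranges of 0.60 to 1.61 (log2), and Muc5b, at 1.23, lay among them, while Bpifa1, Scgb3a1, Scgb3a2 and Cyp2f2 had ranges of 4.86 to 8.15. The 12 genes nearest to Sftpc, led by Ttll5 (r = 0.849), had ranges of 0.51 to 1.19, and no lung gene of the lists was among them.

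Lists of marker genes, 138 genes measured in 20 lists, were then read along the airway genes. A list's score on an array is the mean over its genes of the level minus that gene's mean over the 15 arrays. Scored this way the 4 airway members scored -0.82 to 4.06 in diabetic Apoe/RAGE null and -1.72 to -1.56 in non-diabetic Apoe/RAGE null arrays. They scored -0.35 to 0.92 in diabetic Apoe null and -0.99 to 0.45 in non-diabetic Apoe null arrays. In every one of the 4 comparisons limma called 0 of the 138 list genes, against the shares called above.

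Most other airway secretory genes were also highest in replicate 11. Of 9 measured, 6 were highest there and 4 of them by at least 1, namely Bpifa1, Bpifb1, Reg3g and Lypd2. The other 3, Cbr2, Cldn10 and Tff2, were highest in Apoe null arrays, with r of -0.33, 0.17 and -0.36 with Scgb1a1. Cbr2 lay between 10.07 and 10.85, with 10.43 in replicate 11. Reg3g, a lectin that kills Gram-positive bacteria, read 9.44 in replicate 11 and 2.58 to 5.40 elsewhere. Bpifb1, a relative of Bpifa1, read 6.08 in replicate 11 and 3.63 to 4.49 elsewhere. The list scored 1.68 in replicate 11, and -0.66, -0.65 and -0.49 in replicates 13, 14 and 15.

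**Figure D3:**
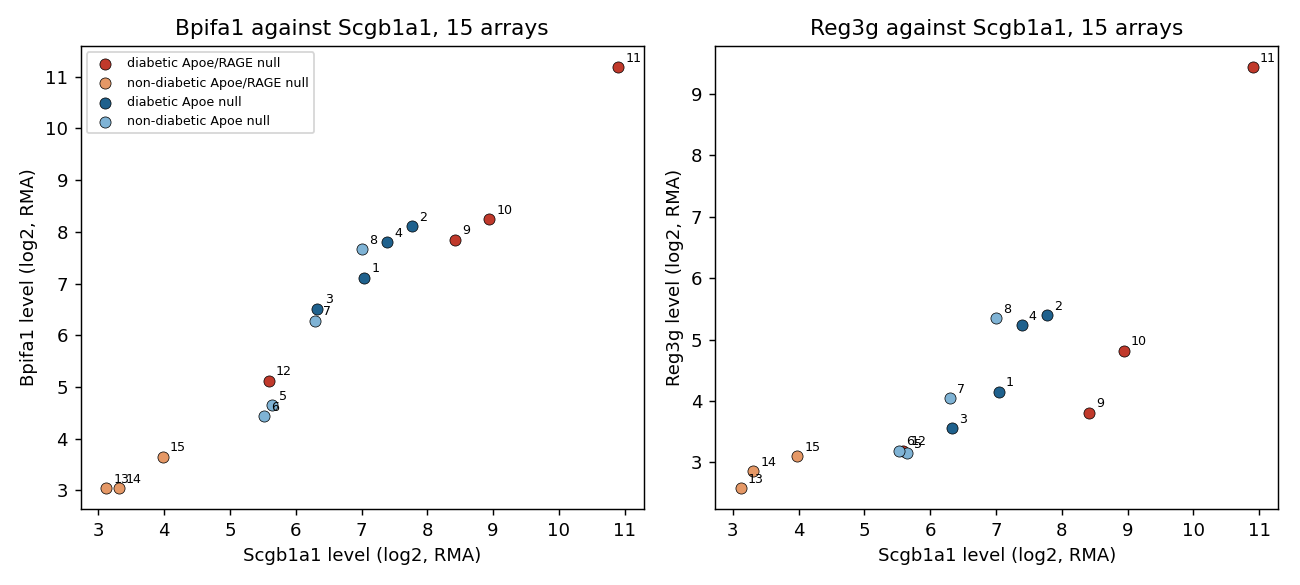
Levels (log2, RMA) of Bpifa1 (left) and of Reg3g (right) against that of Scgb1a1, with 1 point per aorta coloured by group and labelled by replicate. Bpifa1 follows Scgb1a1 through the whole set of arrays, whereas Reg3g stands at 9.44 in replicate 11 and at 5.40 or less elsewhere, and replicates 13 to 15 lie at the lower left of both.

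Ciliated cell genes gave a mixed picture. Of 8 measured 4 were highest there, among them Dynlrb2, a dynein chain (4.12, against 2.22 to 2.75 elsewhere), and Sec14l3 (5.97, against 4.13 to 4.58 elsewhere). Foxj1, the master regulator of motile cilia, was at its lowest there, 3.10. The list scored 0.51 in replicate 11 and -0.10 to 0.03 on the other arrays.

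Alveolar markers beyond the members were mixed. Muc1, a membrane mucin of epithelia, was highest in replicate 11 (4.8, against 3.20 to 3.69 elsewhere), as was the water channel Aqp5 (5.20, against 3.33 to 4.18 elsewhere), which airway glands also make. Napsa, a protease that processes SP-B, was highest in replicate 10 at 6.41. Ager, a marker of alveolar type 1 cells as well as the gene targeted here, read 5.36 in replicate 11 and 4.95 in replicate 12. It read 4.89 to 5.09 in non-diabetic Apoe/RAGE null arrays and 4.17 to 4.69 in Apoe null arrays. Replicates 9 and 10, at 4.63 and 4.48, lay among the Apoe null arrays. At Decr2 they lay below every Apoe null array, nearer to these than to the other Apoe/RAGE null arrays. The sources do not say if this probe set covers the deleted exons, so Ager does not check the genotype. Of the 4 alveolar macrophage genes measured, 2 were highest in replicate 10, Marco (8.31) and Chil3 (5.84). Atp6v0d2 was highest in replicate 11 (3.76), and Krt79 in replicate 5 (6.73, with 5.32 in replicate 10).

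Epithelial genes that are not particular to the lung were highest in another array of the same group. In replicate 10, 9 of 12 were at their highest, among them the adhesion gene Cdh1 (7.35, with 5.40 in replicate 11) and the keratin Krt8 (7.10, with 5.62 in replicate 11). Replicate 10 was second for Scgb1a1, Scgb3a1 and Scgb3a2 and came after replicates 11 and 2 for Cyp2f2. All 7 B and plasma cell genes were also highest there, with a list score of 3.63 against 0.58 in replicate 11. Of the 5 neutrophil genes 4 were highest in replicate 10, and Ltf, the lactoferrin gene that secretory epithelia also express, in replicate 11 (8.56, against 3.44 to 5.36 elsewhere). The neutrophil list scored -0.08 to 1.39 in diabetic Apoe/RAGE null and -0.84 to -0.63 in non-diabetic Apoe/RAGE null arrays, and -0.24 to 0.12 in diabetic Apoe null and -0.54 to 0.11 in non-diabetic Apoe null arrays. The part of these cells in the airway genes' levels was not tested.

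The order of group means seen for the airway genes was shared by 9 of the 20 lists. These were the lists of other airway secretory genes, alveolar type 2 cells, lung transcription factors, alveolar macrophages, B and plasma cells, neutrophils, endothelium, cardiac muscle and skeletal muscle. Some gaps were small, with endothelium means of 0.06, 0.04, 0.01 and -0.16 in that order of groups. By group medians the order failed for endothelium, cardiac muscle, skeletal muscle and B and plasma cells. It held by medians for the other lists named. The lung transcription factor list had 3 genes, with r with Scgb1a1 of 0.79 for Foxa1, -0.01 for Nkx2-1 and -0.31 for Foxa2. The skeletal muscle score was 0.87 to 3.00 in diabetic Apoe/RAGE null and -2.13 to -1.31 in non-diabetic Apoe/RAGE null arrays, and -1.38 to 1.65 in diabetic Apoe null and -2.04 to 1.42 in non-diabetic Apoe null arrays. The median r of the 12 genes with Scgb1a1 over the 15 arrays was 0.648. The highest score, 3.00, was in replicate 12, where the airway members scored -0.82, so the highest array of the 2 scores was not the same. The cardiac muscle score was -0.06 to 1.23 in diabetic Apoe/RAGE null and -1.54 to 0.11 in non-diabetic Apoe/RAGE null arrays, and -0.84 to 0.79 in diabetic Apoe null and -1.95 to 3.86 in non-diabetic Apoe null arrays. The median r of its 6 genes with Scgb1a1 was 0.368. The part of these tissues in the airway genes' differences was not tested. In whole tissue, fewer cells of a type and less RNA per cell cannot be told apart.

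Some lists of neighbouring tissues stayed nearly level and others did not. The cartilage list scored -0.15 to 0.15 on all arrays, the thyroid and parathyroid list -0.10 to 0.15, and the stratified squamous list, which marks oesophagus, -0.16 to 0.14. The median r with Scgb1a1 was -0.10, -0.31 and -0.15 for these lists in that order. Single cartilage genes differed more, with r from -0.83 for Hapln1 to 0.38 for Comp. Acan, with r of -0.65, ranged from 5.68 in replicate 11 to 6.81. Over all arrays the mesothelium list scored -0.71 to 0.87, the brown adipocyte list -1.23 to 0.75 and the thymus list -0.17 to 0.45, with median r of -0.01, -0.27 and -0.30 in that order. The smooth muscle list, of the aortic wall itself, scored -0.52 to 0.37, with a median r of -0.48. Its lowest score was in replicate 11, and replicate 10 scored -0.36. Foxa1, an epithelial transcription factor of lung and other organs, read 4.48 in replicate 11, 3.84 in replicate 10 and 2.79 to 3.31 on the other 13 arrays.

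**Figure D4:**
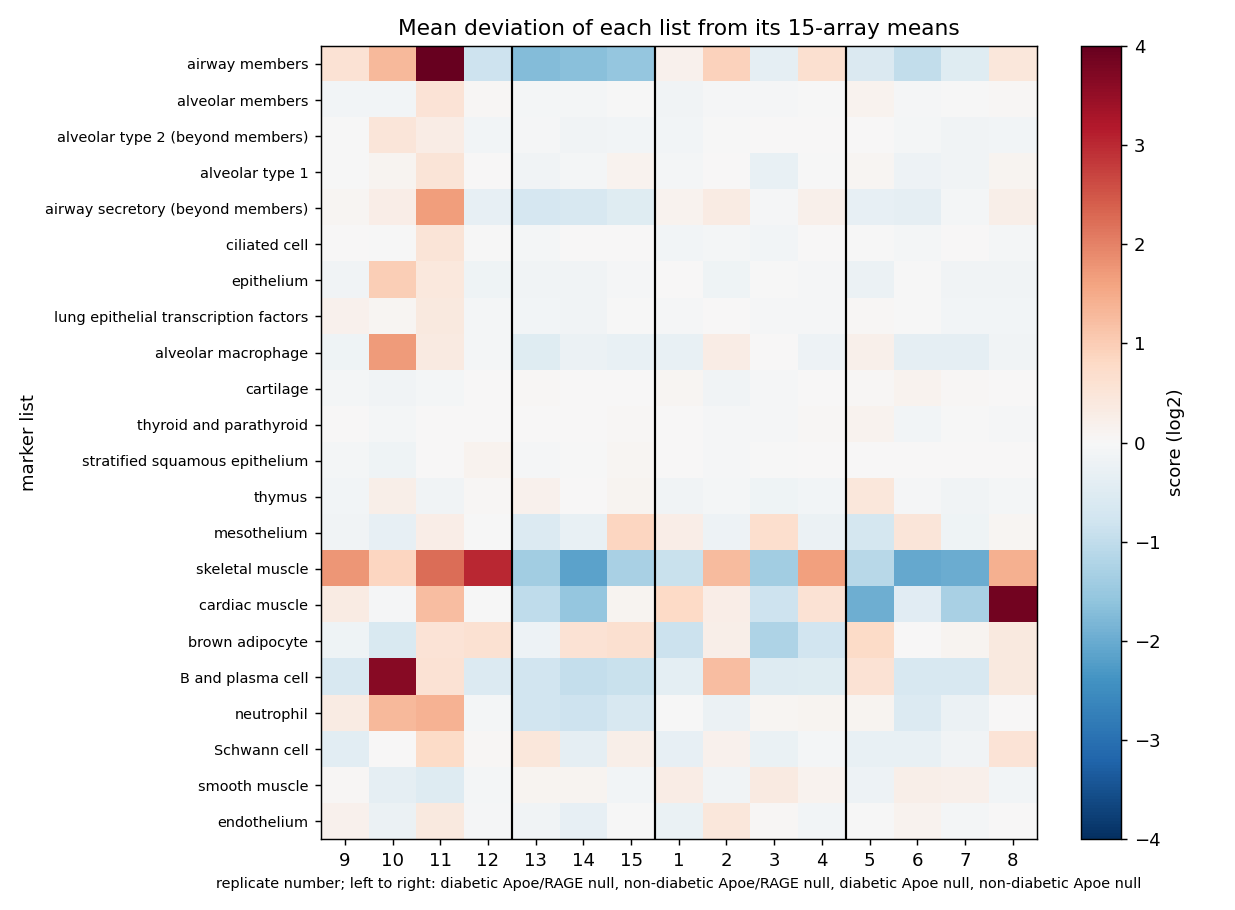
Score (mean deviation of log2 levels from the 15-array mean) of the airway and alveolar members and of marker lists on each aorta, with arrays in columns by group and lists in rows, red above and blue below the mean. The colour scale ends at 4 on either side. Replicate 11 leads the airway members at 4.06 and the airway secretory list at 1.68, replicate 10 leads the B and plasma cell list at 3.63, and replicate 12 the skeletal muscle list at 3.00.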

How the data were processed

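RNA of 15 total aortas was hybridised to Affymetrix mouse expression arrays, 1 for each mouse. The authors deposited log2 levels, for which the submitters' processing notes name RMA. Per the series' design text, arrays were normalized together within each combination of genotype and disease state, so a group difference can hold part of the normalization. Array medians lay between 4.35 and 4.42, and no step was added.

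Of 45101 probe sets 64 controls were left out. Of the other 45037, 34945 carried 1 gene in the 2016 array annotation, 932 several and 9160 none named here, and 34741 matched a RefSeq table (GRCm38.p6) by Entrez ID. Each of 18193 genes was represented by its probe set of highest mean. Promoters came from RefSeq on that build.

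Group means of all 15 arrays were fitted in limma 3.58.1 (R 4.3.3), with p-values adjusted over every probe set by Benjamini and Hochberg's method at 0.05, and the fit was checked on simulated data. The 8 genes, the marker lists and the tests were chosen with earlier results of these data known. Named genes were the members, up to 4 genes of widest range per list, the 12 genes most correlated with Scgb1a1 and with Sftpc, Ager, Apoe and Decr2. Foxj1, Cbr2, Cldn10, Tff2 and the genes of the closing observations fall outside this rule and were named after their values were seen. Apoe, deleted in all mice, is not described.

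Alternatives were a fit of the compared groups alone, B above 0, dropping the dimmer probe sets, median centring, quantile normalization, array weights, the mean of a gene's probe sets, replicates 9 and 10 dropped, and each array dropped in turn. Those for single members were chosen after seeing the data. Plots were made in Python 3.11.15 with matplotlib 3.10.9.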

Additional observations from a re-analysis of the deposited data

Results flagged for a closer look

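Sftpd (1420378_at) read 4.95 (log2) in diabetic Apoe/RAGE null replicate 11, far from the other 3 arrays of its group at 3.40 to 3.54. This was 1 of 30 checks, of 10 probe sets in each of the 3 groups of 4 arrays, in which chance alone picks out about 1 group in 20. The airway genes were not picked out, because their other arrays in that group were spread as well.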

How the results depend on the processing

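The median difference over the 8 genes kept its sign under every alternative run, at 0.63 to 1.66 with 1 array left out for diabetes in Apoe/RAGE null, 0.04 to 0.31 for diabetes in Apoe null, 0.02 to 0.81 for RAGE deletion in diabetes and -0.49 to -0.17 for RAGE deletion without diabetes. Without replicate 11 the first was 0.63 and the third 0.02. Without replicates 9 and 10 the differences of Sftpa1 were 0.45 for diabetes in Apoe/RAGE null and 0.42 for RAGE deletion in diabetes, and those of Sftpb 0.16 in both. Calls over the whole array moved more. For diabetes in Apoe/RAGE null (0) they were 12 with only the compared groups, 4 at B above 0 and 0 to 49 with 1 array left out, the 49 without replicate 12. For diabetes in Apoe null (0) they were 5 with only the compared groups, 1 under quantile normalization, 1 with dimmer probe sets left out, 7 with array weights, 76 at B above 0 and 0 to 3 with 1 array left out. For RAGE deletion in diabetes (110) they were 0 with only the compared groups, 253 with dimmer probe sets left out, 53 with array weights, 321 at B above 0, 22 without replicates 9 and 10 and 0 to 931 with 1 array left out, the 931 without replicate 2. For RAGE deletion without diabetes (0) they were 5 with only the compared groups and 0 to 0 with 1 array left out. The cause was not tested. No paired analysis was possible because each mouse has its own replicate number, from 1 to 15, and no number is shared between groups. With 3 or 4 arrays per group every difference is imprecise.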

Other observations

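Replicate 10 led in a further set of genes, picked after their values were seen. Svs2 and Svs4, seminal vesicle secretory proteins, read 8.68 and 7.20 (log2) there, against at most 3.83 and 3.08 on the other 14 arrays. The lymphocyte genes Cd3g (7.34) and Ccr7 (6.58) were also alone at the top, against at most 3.66 and 3.25 elsewhere. In replicate 11 the epithelial secretory genes Wfdc2 (8.50, against at most 4.84 elsewhere) and Pigr (6.47, against at most 4.25 elsewhere) stood out beside the airway members.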
